A study of Mus musculus with 11 samples.

Results

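The subject is a set of 9 genes for transcription factors that set the fast or slow character of skeletal muscle fibres: Six4, Eya1, Tbx15, Sox6, Prox1, Mef2a, Mef2c, Mef2d and Nfatc1. They were chosen by name and matched by symbol to 9 of the 53465 Ensembl genes of the count table, and all 9 were among the 14117 genes that passed the filter on low counts. RNA came from the quadriceps, a thigh muscle of mostly fast fibres, of aged mice of a strain written C57L/6JRj in the labels. One group of 5 libraries came from mice given DMSO, the solvent, and one of 6 libraries from mice given myriocin, an inhibitor of serine palmitoyltransferase and so of the first step of sphingolipid synthesis. Both groups were 18 months old when treatment began and were treated for 10 weeks. The sources used here give neither the dose nor the sex of the mice. The labels do not say that every library came from its own mouse, so p-values measure the spread between these libraries.

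Adult muscle fibres differ in their myosin: slow fibres use Myh7, and fast fibres use Myh2, Myh1 or Myh4, the last being the fastest and most glycolytic. Homeobox proteins such as Six4 bind DNA together with Eya coactivators and turn on fast genes, Tbx15 is a T-box factor of glycolytic fibres, and Sox6 represses slow genes. On the slow side, the homeobox factor Prox1 supports the slow programme. NFATc1, the product of Nfatc1, enters the nucleus when nerve activity raises calcium and calcineurin removes its phosphates, and MEF2 proteins, which carry a MADS-box DNA-binding domain, are released from class II histone deacetylases by calcium-dependent kinases. The activity of MEF2 and NFAT proteins is therefore controlled largely after translation, which transcript levels do not show.

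Reads counted in genes ran from 22241131 to 23163721 per library. Markers of the labelled tissue were abundant: 6 muscle fibre genes (Ckm, Acta1, Myh4, Mb, Ttn and Pvalb) summed to between 127342 and 157007 CPM (counts scaled so that the reads counted in genes have the same total in each library; the marker sums are before, and all levels of single genes after, TMM scaling for composition). DMSO replicates 4 and 5 and Myriocin replicate 4 held hepatocyte transcripts, with 6 markers summing to 112.7, 94.1 and 116.7 CPM where the remaining libraries had 5.62 to 27.4 CPM. Of the muscle fibre markers 5 of 6 had positive log2 fold changes (myriocin minus DMSO) and of the endothelial markers 0 of 6, beside 46.3% of all tested genes. Endothelial sums were 239 to 278 CPM in the DMSO and 192 to 271 CPM in the myriocin libraries. The part of these markers in the values below was not tested. DMSO replicate 2 stood out for neutrophil markers, at 458 CPM where all others had 0.360 to 62.9 CPM, and for adipocyte markers, at 838 CPM where all others had 156 to 353 CPM. In bulk tissue, fewer cells of a type and less RNA per cell cannot be told apart.

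The 9 factors spanned a wide range of levels. Per kilobase of exon, Tbx15 was the most abundant at 88.4 ± 7.46 CPM per kilobase (mean ± SD over 11 libraries), above 97.4% of the tested genes. Mef2d (39.0 ± 4.63) and Mef2c (32.6 ± 2.16) came next and overlapped within their SDs. Mef2a (9.33 ± 0.873), Sox6 (9.03 ± 1.13) and Nfatc1 (7.60 ± 0.926) formed a middle group in which each neighbour overlapped the next. Eya1 stood at 3.55 ± 0.554 and Six4 at 2.14 ± 0.309 CPM per kilobase, each clear of its neighbours. Prox1 was lowest at 0.123 ± 0.027 CPM per kilobase, above 2.91% of the tested genes. The same order held in the DMSO libraries alone. With the mean length of the annotated transcripts in place of total exon length, Mef2c moved to the top, ahead of Tbx15 and Mef2d, while the other 6 factors kept their places.

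**Figure D1:**
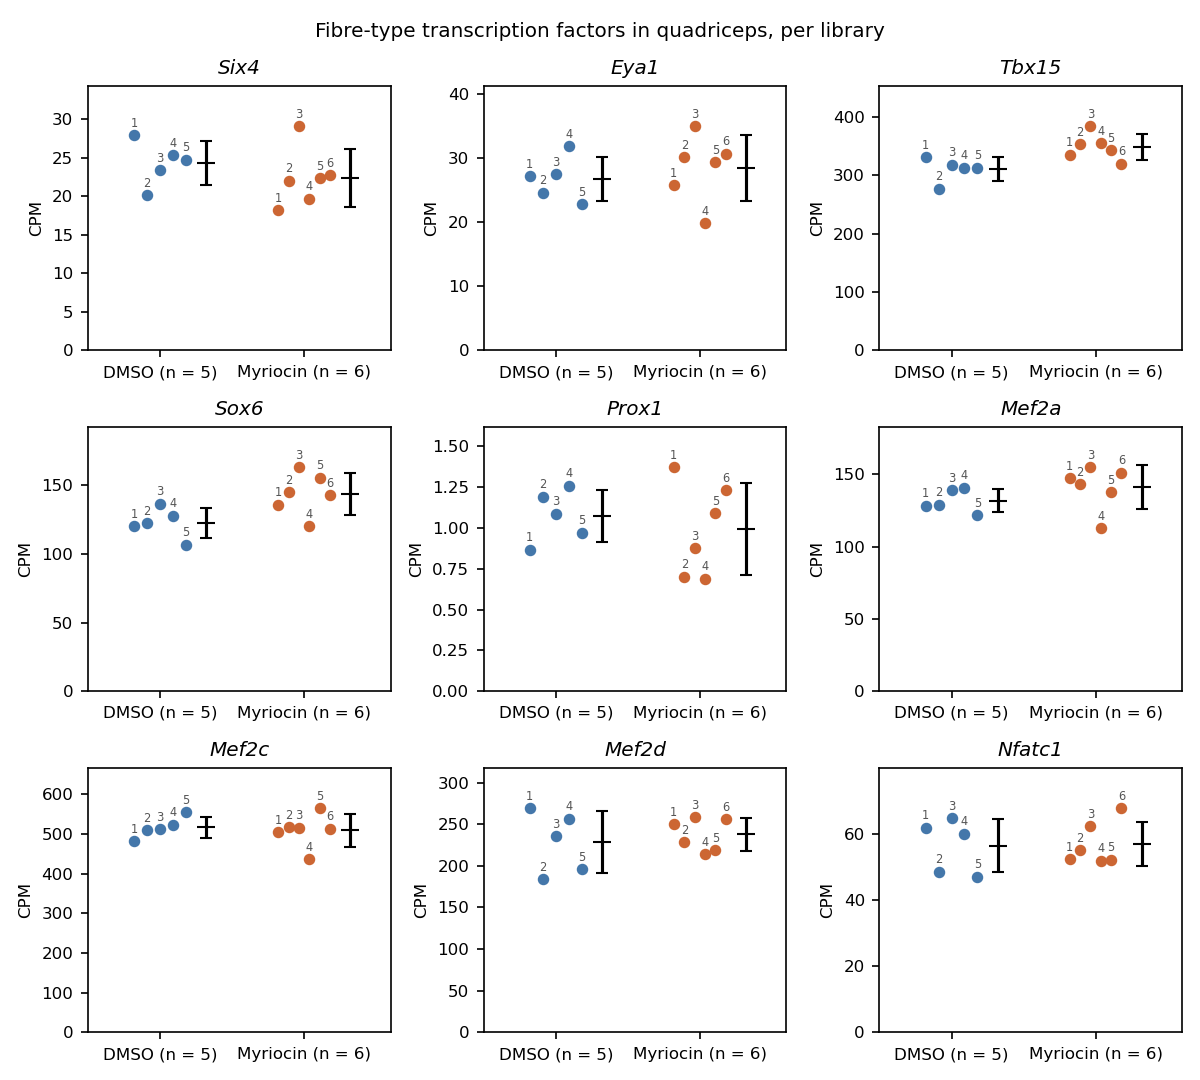
Level of each factor in every library, in CPM after TMM scaling (y axes start at 0); points are libraries numbered by replicate, and the bar beside each group is its mean ± SD. Tbx15 and Sox6 lie higher in most of the 6 myriocin libraries, and for all 9 factors the groups overlap.

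None of the 9 factors passed the test for a difference between myriocin and DMSO. At an adjusted p under 0.05 (edgeR's quasi-likelihood test, Benjamini-Hochberg over 14117 genes) 0 factors passed, where 0% of all tested genes were called, and the adjusted p ran from 0.936 to 0.993. At an unadjusted p under 0.05 there were 2 of 9, Tbx15 and Sox6, both higher with myriocin, beside 4.68% of all genes. The factors were chosen with earlier results of these data known, so this count is a description and not a test of the set. No factor had groups that did not overlap, which 0.361% of all genes had. There were 6 factors with positive and 3 with negative log2 fold changes (myriocin minus DMSO), with a median of 0.06, while 46.3% of all genes were positive and their median was -0.01. The 95% intervals had half-widths of 0.14 to 0.46 on the log2 scale.

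**Figure D2:**
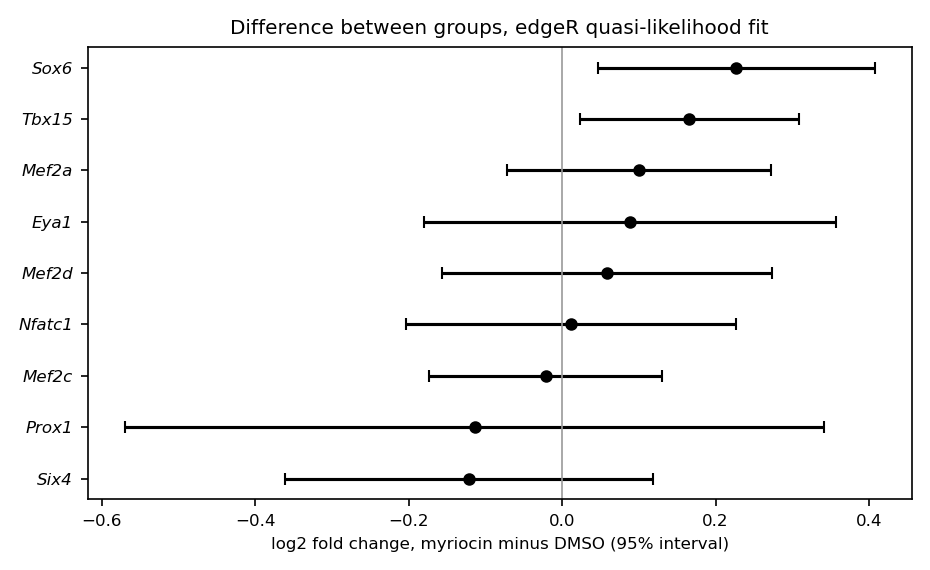
Log2 fold change of each factor, myriocin minus DMSO (points), with 95% intervals (bars) from the edgeR fit over 5 DMSO and 6 myriocin libraries. The intervals of Sox6 (0.05 to 0.41) and Tbx15 (0.02 to 0.31) lie above 0 and the other 7 include it; 0 factors passed the adjusted threshold.

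Tbx15 (ENSMUSG00000027868, GRCm38 chromosome 3, 99240381 to 99354259, plus strand) had 331, 277, 318, 313 and 313 CPM in DMSO replicates 1 to 5. In the 6 myriocin libraries its lowest value was 320.2, its median 348 and its highest 384 CPM. All 6 myriocin libraries lay above the DMSO mean and 5 of them above the highest DMSO library, while 4 of 5 DMSO libraries lay below the lowest myriocin library. The mean went from 310.6 ± 20.01 (SD, n = 5) to 348 ± 21.6 CPM (SD, n = 6), a log2 fold change of 0.17 (SE 0.07, 95% interval 0.02 to 0.31). The unadjusted p in edgeR was 0.0261 and the adjusted p 0.936, with adjusted values from 0.467 to 0.9995 over the alternatives. Without scaling the log2 fold change was 0.13 and the unadjusted edgeR p 0.0608. Without DMSO replicate 2, the library with the lowest Tbx15 level and the neutrophil and adipocyte transcripts, it was 0.13 with an unadjusted edgeR p of 0.0743, and without the 3 libraries with hepatocyte transcripts 0.17 with 0.0579.

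Tbx15 also followed the fastest myosin from library to library. Myh4 stood at 64923, 54622, 59760.4, 70004 and 60261 CPM in the DMSO libraries, and between 67423 and 75600.2 CPM with myriocin. DMSO replicate 2 was lowest and Myriocin replicate 3 highest in both genes. Across the 11 libraries the log2 CPM values of Tbx15 and Myh4 had a Pearson r of 0.87 (permutation p = 0.00036, adjusted p = 0.0130 over 36 relations of a factor with an adult myosin) and a Spearman rho of 0.87 (permutation p = 0.00086, adjusted p = 0.0310). Within the groups r was 0.69 (DMSO, n = 5) and 0.90 (myriocin, n = 6). With deviations from the group means r was 0.73 and the permutation p adjusted over the family 0.261. Without the 2 libraries farthest from the median of Tbx15, DMSO replicate 2 and Myriocin replicate 3, r was 0.69 with an adjusted permutation p of 0.244. The call did not hold without them, but they are the lowest and highest in Tbx15, so leaving them out also narrows its range. The call also ended without DMSO replicate 2 alone (r = 0.76), without Myriocin replicate 3 (0.85), without Myriocin replicate 4 (0.86) and without TMM scaling (0.81), with adjusted permutation p-values of 0.275, 0.0684, 0.0558 and 0.0767. Leaving out the 3 libraries with hepatocyte transcripts gave an r of 0.94.

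Sox6 (ENSMUSG00000051910, chromosome 7, 115470872 to 116038796, minus strand) had the smallest p of the 9. Its levels were 119.8, 122, 136, 128 and 107 CPM in DMSO replicates 1 to 5, and its lowest, median and highest myriocin levels were 120.0, 143 and 163 CPM. It exceeded the DMSO mean in 5 of 6 myriocin libraries and the highest DMSO library in 4, the exception on the low side being Myriocin replicate 4. The means were 122 ± 10.9 CPM (SD, n = 5) and 143 ± 14.99 CPM (SD, n = 6), a 1.17-fold difference with a log2 value of 0.23 (SE 0.08, interval 0.05 to 0.41). Its unadjusted p in edgeR was 0.0169, rank 194 of 14117 genes, and its adjusted p 0.936. The log2 fold change stayed between 0.18 and 0.27 over all 20 alternatives, with adjusted values from 0.391 to 0.9995. Without scaling the log2 fold change was 0.19 and the unadjusted edgeR p 0.0608, and without the 3 libraries with hepatocyte transcripts they were 0.23 and 0.0106.

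Sox6 is a known target of microRNAs that are encoded inside slow-type myosin genes, so their sequences are shown beside its values. Both come from RefSeq (build GRCm38.p6), are written 5′ to 3′, and have the seed (bases 2 to 8), the part that pairs with a target, in capitals.
mmu-miR-499-5p: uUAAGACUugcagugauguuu
mmu-miR-208b-3p: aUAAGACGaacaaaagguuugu
The first lies on chromosome 2 at 155622893 to 155622913 within Myh7b, and the second on chromosome 14 at 54975710 to 54975731 within Myh7, each on the strand of its host. The seeds share all bases but the last. The longest annotated Sox6 3′ UTR has 6046 bases and holds 3 matches to the whole seed of miR-499-5p (AGTCTTA) and 1 to that of miR-208b-3p (CGTCTTA). Of 293 3′ UTRs within 10% of that length, 42.3% hold the first match and 4.10% the second. The windows, in transcript direction on the minus strand of chromosome 7 with the match in capitals, start with the match to miR-208b-3p, which lies just before the first of those to miR-499-5p.
miR-208b-3p match, chr7:115476631-115476652: tgcccatcgcCGTCTTAtgagt
miR-499-5p match, chr7:115476622-115476643: ccgtcttatgAGTCTTAcattt
miR-499-5p match, chr7:115476309-115476330: ctattttaaaAGTCTTAcagga
miR-499-5p match, chr7:115476287-115476308: gacactgcaaAGTCTTAgacaa
A match describes these letters only, and the mature microRNAs were not measured here.

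The transcript of Myh7b, the host of miR-499, ran opposite to Sox6. It was the slow-fibre gene with the smallest p, at 6.06, 3.81, 3.48, 3.60 and 4.80 CPM in the DMSO libraries and 1.66 (lowest), 3.08 (median) and 4.32 CPM (highest) with myriocin. Its log2 fold change was -0.52 (SE 0.21), and it did not pass in edgeR (adjusted p = 0.936). Across the 11 libraries Sox6 and Myh7b had a Pearson r of -0.83 (permutation p = 0.00183) and a Spearman rho of -0.92 (permutation p = 0.00022). This single relation was added after the values of both genes had been seen, so its p-values are not adjusted for that choice. Within the groups r was -0.62 (DMSO) and -0.78 (myriocin), and it was -0.72 without DMSO replicate 5 and Myriocin replicate 3, the libraries farthest from the median of Sox6. Leaving out single libraries gave -0.90 to -0.75. Myh7b rests on 38 to 140 counts per library. Against Myh7, the host of miR-208b, Sox6 had an r of 0.09.

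**Figure D3:**
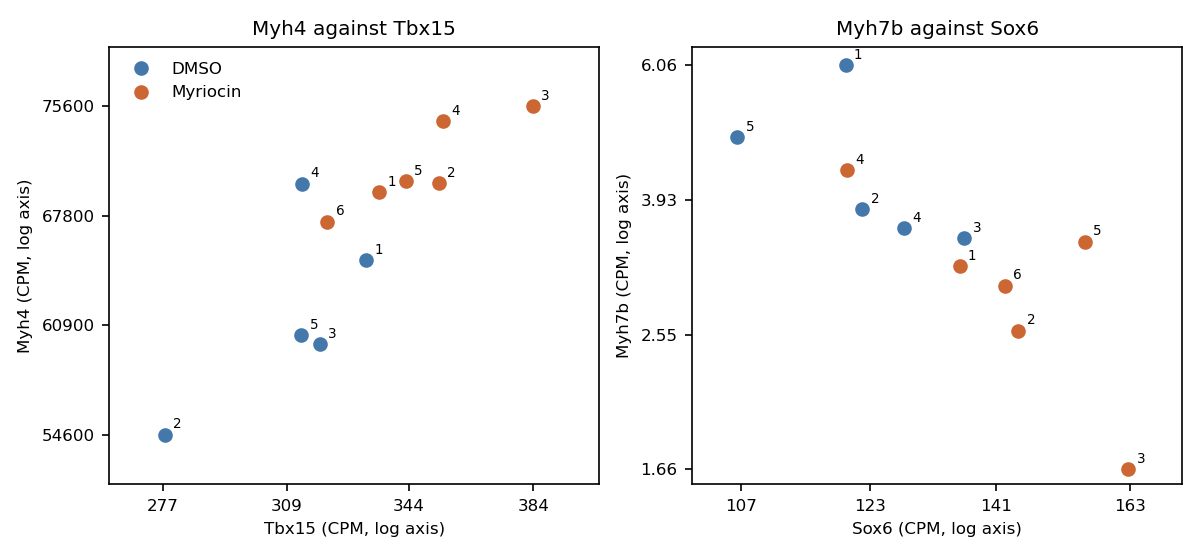
Myh4 against Tbx15 (left) and Myh7b against Sox6 (right), each point a library in CPM on log axes, numbered by replicate, DMSO blue and myriocin orange. Libraries with more Tbx15 have more Myh4 (r = 0.87), with DMSO replicate 2 and Myriocin replicate 3 at the ends, and libraries with more Sox6 have less Myh7b (r = -0.83).

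Six4 (ENSMUSG00000034460, chromosome 12, 73099609 to 73113456, minus strand) had its values on the low side with myriocin. The DMSO libraries had 27.9, 20.2, 23.4, 25.3 and 24.8 CPM, and the myriocin libraries 18.2 at the lowest, 22.2 at the median and 29.1 CPM at the highest. Only Myriocin replicate 3, the highest of all 11, lay above the DMSO mean. The log2 fold change was -0.12 (interval -0.36 to 0.12, adjusted p = 0.936 in edgeR), and without Myriocin replicate 3 it was -0.21 with an unadjusted edgeR p of 0.0435. It was -0.07 without DMSO replicate 1 and also without Myriocin replicate 1, and -0.06 without the 3 libraries with hepatocyte transcripts.

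Eya1 (ENSMUSG00000025932, chromosome 1, 14168954 to 14310235, minus strand), the coactivator partner, had 27.2, 24.6, 27.5, 31.9 and 22.8 CPM with DMSO. The myriocin libraries had the lowest and the highest value of the study, 19.9 CPM in replicate 4 and 35.0 CPM in replicate 3, with a median of 29.8 CPM. Its log2 fold change was 0.09 (interval -0.18 to 0.36). Without Myriocin replicate 4 it was 0.17, and without Myriocin replicate 3 it was 0.02.

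Of 8 other tested genes for relatives of Six4 and Eya1 and for the Dach cofactors, 4 were positive and 4 negative, 0 had an unadjusted edgeR p under 0.05 and 0 passed. Those with the smallest p were Eya2 (log2 fold change -0.42, SE 0.20) and Eya4 (0.19, SE 0.09).

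The 3 MEF2 genes differed little between the groups. Mef2c (ENSMUSG00000005583, chromosome 13, 83504034 to 83667080, plus strand) had 482, 511, 513, 524 and 556 CPM with DMSO and 437, 515 and 565 CPM as lowest, median and highest with myriocin. The myriocin range enclosed the DMSO range. Its log2 fold change was -0.02 (interval -0.17 to 0.13), which bounds the difference to a fold of 0.887 to 1.09.

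Mef2a (ENSMUSG00000030557, chromosome 7, 67231163 to 67372858, minus strand) had 128, 129, 139, 141 and 122 CPM with DMSO and 112.9, 145 and 155 CPM as lowest, median and highest with myriocin. In 4 of 6 myriocin libraries it was above the highest DMSO library, but Myriocin replicate 4 was the lowest of all. The log2 fold change was 0.10 (interval -0.07 to 0.27), and without Myriocin replicate 4 it was 0.16, with an unadjusted edgeR p of 0.0242 and an adjusted p of 0.441 (0.441 to 0.9995 over the alternatives).

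Mef2d (ENSMUSG00000001419, chromosome 3, 88142372 to 88172086, plus strand) had the widest relative spread of the 3 in the DMSO group, with 269, 184, 235, 257 and 196 CPM, a coefficient of variation of 16.3% against a counting error of 1.37%. The myriocin values ran from 214 to 259 CPM with a median of 239 CPM, inside the DMSO range. Its log2 fold change was 0.06 (interval -0.16 to 0.27) and turned negative, to -0.01, without DMSO replicate 2. Exons of antisense or opposite-strand genes overlap 8.87% of the exon length of Mef2d (1700113A16Rik), 2.06% of that of Mef2a (Lysmd4) and 1.59% of that of Prox1 (Prox1os). The sources used here do not say whether the counting used strand. Without strand, reads of these stretches may have been set aside as ambiguous, a class that held 6.46% to 7.73% of a library's reads.

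Nfatc1 (ENSMUSG00000033016, chromosome 18, 80606205 to 80713071, minus strand) had 61.9, 48.6, 64.8, 60.1 and 47.1 CPM with DMSO, and 52.0, 53.7 and 67.8 CPM as lowest, median and highest with myriocin. The groups covered nearly the same range, and the log2 fold change of 0.01 (interval -0.20 to 0.23) changed sign in 8 of 20 alternatives. Among 4 tested relatives (Mef2b fell under the filter) 3 were positive and 1 negative, where 46.3% of all tested genes were positive. Of the relatives 2 had an unadjusted edgeR p under 0.05, beside 4.68% of all tested genes. These were Nfatc4 (-0.36, SE 0.15) and Nfatc3 (0.19, SE 0.08), neither of which passed after adjustment.

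None of the calcineurin genes that act upstream of NFATc1 passed the test. Of 12 tested genes for calcineurin subunits, inhibitors and anchors, 8 were positive and 4 negative with a median of 0.03, and 0 had an unadjusted edgeR p under 0.05. Rcan2, a calcineurin inhibitor (-0.20, SE 0.12), and Myoz3, a calcineurin-binding protein of the Z-disc (0.21, SE 0.15), had the smallest p. Of 11 tested genes for class II histone deacetylases and the kinases that act on them, 6 were positive and 5 negative, and 1 had an unadjusted edgeR p under 0.05. There Hdac9 had the smallest p, at 4.10 ± 0.849 CPM (SD, n = 5) and 6.23 ± 1.79 CPM (SD, n = 6), a log2 fold change of 0.60 (SE 0.20), followed by Hdac4 (-0.32, SE 0.16), and 0 passed in edgeR.

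Prox1 (ENSMUSG00000010175, chromosome 1, 190118035 to 190170714, minus strand) was close to the limit of detection. It had 15 to 31 counts per library, and its levels were 0.865, 1.19, 1.09, 1.26 and 0.970 CPM with DMSO and 0.690 at the lowest, 0.981 at the median and 1.37 CPM at the highest with myriocin. Counting error alone gives a coefficient of variation of 20.6%, beside 14.8% and 28.5% measured in the groups. The log2 fold change was -0.11 with an interval from -0.57 to 0.34, the widest of the 9. It moved to -0.23 when Myriocin replicate 1 was left out, to -0.18 for DMSO replicate 1 or Myriocin replicate 6, to -0.07 for DMSO replicate 2, to -0.05 for DMSO replicate 4, and to -0.03 for Myriocin replicate 2 or 4. Prox1 is also made by lymphatic endothelium and hepatocytes. Of the lymphatic markers, Ccl21a was at 0 in all libraries and the 6 summed to 15.4 to 35.0 CPM with DMSO and 20.3 to 26.4 CPM with myriocin, a range enclosed by the DMSO range. In the 3 libraries with hepatocyte transcripts Prox1 had 1.26, 0.970 and 0.690 CPM, within its range elsewhere but for the last, which was the lowest of the 11. Without these 3 libraries its log2 fold change was 0.01.

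Some of the factors varied together across libraries. Of 36 pairs of factors, 31 had a positive Pearson r of log2 CPM over the 11 libraries. The share of positive r among pairs of other genes was not computed, so this count is a description. After adjustment over the 36 pairs 3 passed with Pearson's r and 0 with Spearman's rho. Eya1 and Mef2a had an r of 0.87 (permutation p = 0.00036, adjusted p = 0.0130) and a rho of 0.80 (permutation p = 0.00456, adjusted p = 0.0923). Mef2d and Nfatc1 had an r of 0.81 (permutation p = 0.00279, adjusted p = 0.0458) and a rho of 0.79 (permutation p = 0.00513, adjusted p = 0.0923). Sox6 and Mef2a had an r of 0.79 (permutation p = 0.00382, adjusted p = 0.0458) and a rho of 0.77 (permutation p = 0.00805, adjusted p = 0.0966). Eya1 and Sox6 followed, with an r of 0.75 (permutation p = 0.00761, adjusted p = 0.0685) and a rho of 0.75 (permutation p = 0.0114, adjusted p = 0.102).

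**Figure D4:**
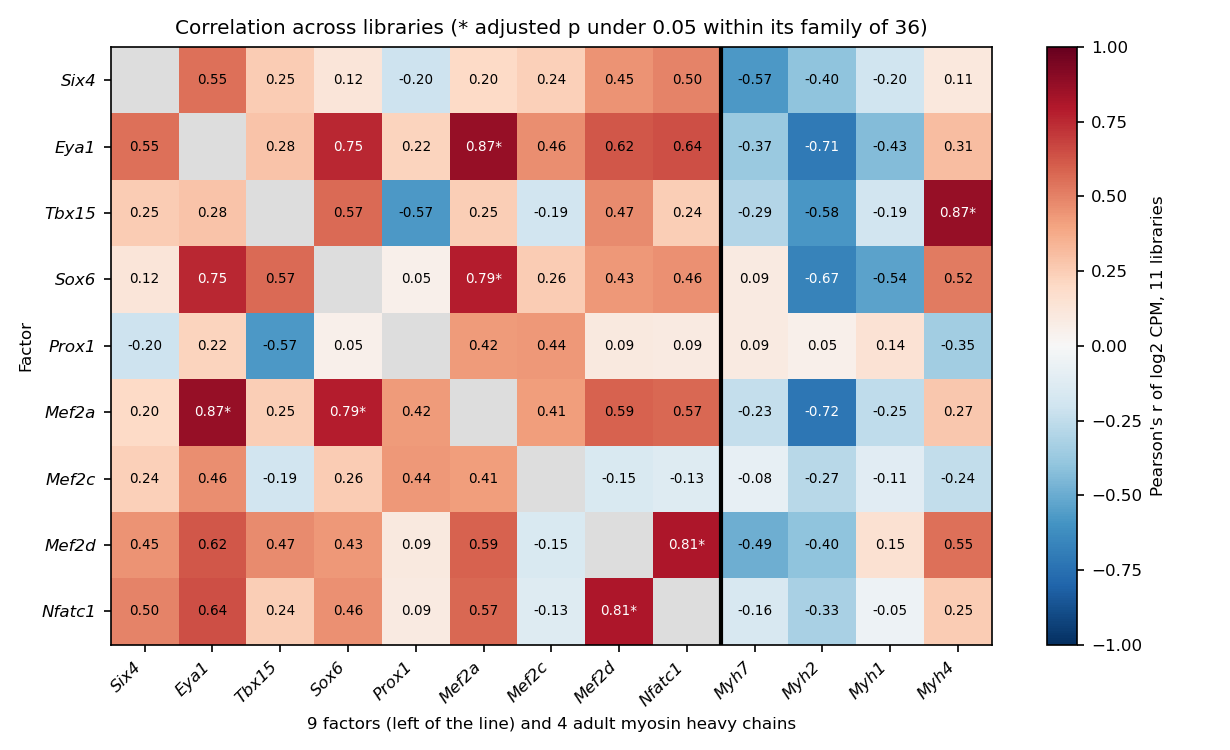
Pearson's r of log2 CPM over 11 libraries between the 9 factors (left of the line) and of each factor with 4 adult myosin heavy chains (right of the line); red is positive, blue negative, and an asterisk marks an adjusted permutation p under 0.05 within its family of 36. The asterisks mark Eya1 with Mef2a (0.87), Mef2d with Nfatc1 (0.81), Sox6 with Mef2a (0.79) and Tbx15 with Myh4 (0.87).

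These 4 relations had the same sign within both groups, and the 3 calls differed in how far they depended on single libraries. With each of the 11 libraries left out in turn, Eya1 and Mef2a kept an adjusted permutation p under 0.05 in 8 fits and lost it without DMSO replicate 5, Myriocin replicate 3 or Myriocin replicate 4 (0.106, 0.0882 and 0.0738). Mef2d and Nfatc1 kept it in 2 fits, without DMSO replicate 3 or Myriocin replicate 1, and Sox6 and Mef2a in 1, without Myriocin replicate 5. Eya1 and Sox6 passed without TMM scaling (r = 0.79, adjusted permutation p = 0.0382) and with deviations from the group means (r = 0.86, adjusted permutation p = 0.0137). Eya1 and Mef2a had an r of 0.88 within DMSO and 0.89 within myriocin, Mef2d and Nfatc1 0.88 and 0.74, Sox6 and Mef2a 0.92 and 0.76, and Eya1 and Sox6 0.70 and 0.94. Without the 2 libraries farthest from the median of the gene named first, r was 0.70, 0.65, 0.68 and 0.70 in the same order, and 0 pairs passed. Those libraries were Myriocin replicates 3 and 4 for Eya1, DMSO replicates 2 and 5 for Mef2d, and DMSO replicate 5 and Myriocin replicate 3 for Sox6.

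The balance of long and short genes moved with the same factors. It was measured per library as the median log2 deviation of the longest 10% of tested genes (1407 genes) minus that of the shortest 10% (1412 genes). Length was total exon length, and the factors were left out. By this length Mef2c, Sox6, Mef2a and Six4 (15715, 14832, 14681 and 10855 bases) exceed the 9738-base limit of the longest set, and the other factors do not. DMSO replicate 5 (-0.38) and Myriocin replicate 4 (-0.32) were low, DMSO replicate 2 stood at -0.11, and the other libraries lay between 0.03 and 0.16. Eya1 followed it with an r of 0.85 (permutation p = 0.00055) and a rho of 0.74 (permutation p = 0.0130), Mef2a with 0.84 (0.00152) and 0.69 (0.0228), and Sox6 with 0.77 (0.00345) and 0.65 (0.0360), both p-values by permutation. For Mef2d and Nfatc1 r was 0.72 and 0.70 (permutation p = 0.0132 and 0.0131). In these 5, r passed after adjustment over 12 genes (permutation, adjusted p from 0.00660 to 0.0318) and rho did not (0.0662 to 0.0863). Without DMSO replicate 5 and Myriocin replicate 4, the libraries farthest from the median of the balance, r was 0.66 for Eya1, 0.58 for Mef2a, 0.57 for Sox6, 0.77 for Mef2d and 0.62 for Nfatc1. Tbx15 had an r of 0.26 over all libraries and 0.78 without those libraries, and Myh4 had 0.28 and 0.78. Mef2c had -0.86 within DMSO and 0.87 within myriocin, a difference that was not tested. After a linear fit on this balance the r of Eya1 and Mef2a went from 0.87 to 0.56, that of Sox6 and Mef2a from 0.79 to 0.42, that of Eya1 and Sox6 from 0.75 to 0.30 and that of Mef2d and Nfatc1 from 0.81 to 0.62. For Tbx15 and Myh4 it went from 0.87 to 0.86, and for Sox6 and Myh7b from -0.83 to -0.81, in a fit that holds the 2 libraries left out above. This measure was added after the correlations had been seen, and its part in them was not tested further.

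Among the 6 factors with promoter windows, those of Mef2a and Sox6 held a match to a loose form of the MEF2 motif. The pattern searched was CTA and TAG with any 4 bases between them, which is its own reverse complement. It is looser than the MEF2 consensus, whose 4 central bases are A or T, and the Sox6 match has a C among them. The search covered RefSeq windows (GRCm38.p6) from 250 bases before to 50 after each transcript start. For 6 of the 9 factors 15 windows were found, of which 2 held this loose pattern, beside 3.69% of all 32851 windows. The Mef2a match spans the start itself, from 2 bases before it to base 8 of the transcript, and the match at one of the Sox6 starts runs from position -106 to -97 relative to it. Both are shown in transcript direction (minus strand) with the match in capitals.
Mef2a, chr7:67372849-67372930: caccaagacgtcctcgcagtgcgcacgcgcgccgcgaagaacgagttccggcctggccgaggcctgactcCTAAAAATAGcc
Sox6, chr7:116031074-116031223: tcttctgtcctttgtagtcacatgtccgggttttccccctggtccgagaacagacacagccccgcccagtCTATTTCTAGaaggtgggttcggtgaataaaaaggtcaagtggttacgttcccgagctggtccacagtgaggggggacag
A match is not evidence that a factor binds there.

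The other adult myosins were tested in the same family of 36. With Myh2, the myosin of oxidative fast fibres, 8 of 9 factors had a negative r. Mef2a and Myh2 had an r of -0.72 (permutation p = 0.0113, adjusted p = 0.177) and a rho of -0.84 (permutation p = 0.00203, adjusted p = 0.0365), and r was -0.26 within DMSO and -0.75 within myriocin. Eya1 and Myh2 had an r of -0.71 and Sox6 and Myh2 of -0.67 (permutation, adjusted p = 0.177 and 0.186), with a rho of -0.74 and -0.66 (permutation, adjusted p = 0.151 and 0.283). For Eya1 r was -0.37 within DMSO and -0.82 within myriocin. For Sox6 it was 0.13 within DMSO, of the opposite sign, and -0.75 within myriocin, and -0.48 over all libraries but Myriocin replicate 3. Myh2 itself ranged from 363 CPM in Myriocin replicate 3 to 2129 CPM in DMSO replicate 1. Without the 2 libraries farthest from the median of the factor, r was -0.84 for Mef2a, -0.54 for Eya1 and -0.63 for Sox6. The slow myosin Myh7 varied from 1.08 to 111 CPM with DMSO and from 1.88 to 145 CPM with myriocin, and no factor was related to it after adjustment (r from -0.57 for Six4 to 0.09 for Prox1).

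Other regulators and the fibre-type genes themselves were counted from lists. Of 13 tested fast-fibre genes 9 were positive and 4 negative (median 0.15). Among the negative genes were the fast myosins Myh2 (-0.56, SE 0.35) and Myh1 (-0.12, SE 0.15). An unadjusted edgeR p under 0.05 was found for 3, all higher: Myh4 (0.20, SE 0.08), Myl1 (0.24, SE 0.11) and Casq1 (0.24, SE 0.11). Casq1 was named after its value was seen. Of 10 tested slow-fibre genes 2 were positive and 8 negative (median -0.11), and only Myh7b had an unadjusted edgeR p under 0.05, with Myl2 next (-0.53, SE 0.94). The 4 myogenic factors were positive with a median of 0.12, and Myf5 (0.32, SE 0.24) and Myod1 (0.09, SE 0.11) had the smallest p. Of 13 genes for Maf, Tead and Vgll factors and other fibre-type regulators, 8 were positive and 5 negative, and 1 had an unadjusted edgeR p under 0.05. Vgll2, a cofactor of Tead proteins that supports slow fibres, had DMSO and myriocin means of 88.7 ± 18.6 CPM (SD, n = 5) and 67.3 ± 10.5 CPM (SD, n = 6), which is -0.40 on the log2 scale (SE 0.14), followed by Tead3 (0.17, SE 0.10). The 5 relatives of Sox6, Tbx15 and Prox1 were negative with a median of -0.18, 1 of them with an unadjusted edgeR p under 0.05, led by Tbx1 (-0.19, SE 0.08) and Sox13 (-0.11, SE 0.09). In each of these lists 0 genes passed the test over all genes in edgeR. For comparison with these lists and those above, 46.3% of all tested genes were positive and 4.68% had an unadjusted edgeR p under 0.05. Tnnc2, counted among the negative fast-fibre genes, had means of only 1.08 CPM with DMSO and 0.993 CPM with myriocin. Tnni2 and Tnnt3 of the same list, named here for comparison, had 7244 and 20152 CPM with DMSO. Why the counts of Tnnc2 were so low was not tested, so they may not give its level.

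The gene most like a factor across the 11 libraries was named for 8 of the 9 by Pearson's r of log2 CPM, among named genes with a mean of at least 1 CPM. It was Ache, the acetylcholinesterase of the neuromuscular junction, for Tbx15 (r = 0.93), Tab3 for Sox6 (0.98), Hus1 for Eya1 (0.97) and Epb41l4b for Six4 (0.92). For Mef2a it was the noncoding RNA gene Pvt1 (0.97), for Mef2c Sox4 (0.90), for Mef2d Ppp1r12b (0.96) and for Prox1 Slc25a30 (0.88). Each is the largest of 11681 values and is given as a description.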

How the data were processed

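Bulk RNA-seq of quadriceps muscle was deposited as raw counts of reads in Ensembl genes. Per the submitters' processing notes the authors used STAR 2.5.2b, HTSeq 0.6.0 and the mouse build GRCm38. For the strand setting and the annotation release, nothing is stated in the sources used here. The 5 HTSeq summary lines, with 24.8% to 28.2% of a library's reads, were left out of library sizes and tests. Gene symbols, positions and exon lengths were taken from GENCODE M21 on GRCm38.

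Groups were taken from the labels. Counts were filtered with filterByExpr, scaled by TMM and tested with edgeR 4.0.16 (R 4.3.3; quasi-likelihood F test, robust, 2-sided, no covariate, Benjamini-Hochberg over 14117 genes, threshold 0.05). Standard errors and 95% intervals were derived from the F statistic and its fitted degrees of freedom. Over all genes tested the smallest adjusted p was 0.513. DESeq2 1.42.0, limma 3.58.1, other scalings, no filter and left-out libraries were alternatives. Correlations used log2 CPM (prior count 2) with 2-sided permutation tests of 100000 resamples (20000 with a library left out). No pair of libraries within a group agreed within sampling noise (chi-square per degree of freedom 8.18 or more).

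The 9 factors and the lists were chosen with earlier results of these data known. Named beside them were, for each list, the 2 genes with the smallest p, their paralogs or partners, the adult myosins, the gene most like each factor (for Nfatc1 it is not reported here), and in each family the 4 pairs with the largest r and any pair that passed.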

Additional observations from a re-analysis of the deposited data

How the results depend on the processing

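Of the 9 factors 0 passed under each of 20 alternatives. Over all genes edgeR called 0 (660 at an unadjusted p under 0.05), limma-voom 0, each left-out library 0 to 0, and DESeq2 6 (3 higher, 3 lower), none of them a factor. Six4, Eya1, Tbx15, Sox6 and Mef2a kept their sign under all 20. Mef2c turned to 0.064 without the 3 libraries with hepatocyte transcripts. It was 0.049 without 3 libraries taken as the farthest out (DMSO replicates 2 and 5, Myriocin replicate 4), and ranged from -0.051 to 0.018 with single libraries left out. Mef2d turned to -0.066 without the farthest 3 and ranged from -0.0098 to 0.13. Nfatc1 turned to -0.024 without scaling, -0.0089 without the hepatocyte 3 and -0.10 without the farthest 3, and ranged from -0.049 to 0.065. Prox1 turned to 0.0065 without the hepatocyte 3 and ranged from -0.23 to -0.03. The number of factor pairs that passed went from 3 to 0 with Spearman's rho, 0 without the 2 farthest libraries, 0 without the hepatocyte 3, 0 to 2 with single libraries left out, and 4 both without TMM and with deviations from group means. For the myosins it went from 1 to 0 without TMM, 2 with rho, 0 with deviations from group means and 0 to 1 with single libraries left out. With mean transcript length 6 of 9 levels kept their rank. The cause was not tested. Prox1 rests on 15 to 31 counts per library.

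Samples with the same replicate number did not deviate together (r from -0.13 to 0.09), and for 0 of 5 numbers was the own number the best partner. With the replicate block over 10 libraries 0 genes and 0 factors passed, 509 genes had an unadjusted p under 0.05, and Nfatc1 was at -0.036.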
